A study of Schizosaccharomyces pombe with 12 samples.

Results

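The genes described here encode the Smc5-Smc6 complex of Schizosaccharomyces pombe (fission yeast) and 2 proteins that work with it. They were chosen by name as the rows smc5, smc6, nse1, nse2, nse3, nse4, nse5, nse6, rad60 and brc1, and all 10 were found among the 7013 genes counted in each library. All 10 also passed the filter on low counts, which left 6602 genes to be tested. RNA was profiled in 4 groups of 3 libraries. G34R cells carried histone H3 with glycine 34 replaced by arginine, and G34V cells carried H3 with valine at that position. Set2D cells had wild-type H3 and carried the label Set2D mutant, which is taken to mean that set2 was deleted. Its product methylates H3 at lysine 36. WT cells had wild-type H3 and no labelled change in set2. All groups grew overnight at 25 °C in the rich medium YES. The labels give no strain background, do not say which H3 gene carries the change or whether other H3 genes were removed, and do not tell if replicates were grown as separate cultures. The p-values therefore reflect how far replicate libraries spread, and that spread may be technical. By its title, the series is about differences between G34R and G34V cells in chromatin and in their response to DNA damage.

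Smc5-Smc6 belongs to the family of ring-shaped SMC complexes, together with cohesin and condensin. It is loaded onto chromatin at stalled or broken replication forks, is needed for homologous recombination to be completed there, and its core is essential for growth in fission yeast. Smc5 and Smc6 are the ATPases with long coiled coils, Nse4 is the kleisin that bridges their heads, Nse1 is a RING protein and Nse3 a MAGE protein that bind Nse4, and Nse2 is a SUMO ligase docked on Smc5. Nse5 and Nse6 form a subcomplex that helps to load the complex and, in fission yeast, is not essential. Rad60 has SUMO-like domains and is needed for the same repair, and Brc1 is a BRCT domain protein that binds phosphorylated histone H2A and was found as a suppressor of an smc6 mutant.

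Counts assigned to genes were 108430807 to 219767664 per library in G34R, 65797517 to 169260166 in G34V, 81980085 to 190041712 in Set2D and 159950870 to 228726069 in WT. Values are given as CPM, read counts per 1000000 of the library total multiplied by its TMM scaling factor (0.972 to 1.04). Single members had 1138 to 41428 counts, so that counting alone gave an error of 0.491 to 2.96%, and the 10 members together took 0.0720 to 0.0767% of the counts in each library. Transcripts of set2 lay between 3.69 and 4.38 CPM in the Set2D libraries, while they averaged 128 ± 5.29 CPM in WT (SD, n = 3), as the label says. In G34R set2 fell too, at 110 ± 1.69 CPM (log2 fold change −0.22, edgeR adjusted p = 0.000198), and in G34V it stood at 130 ± 4.59 CPM (0.02, adjusted p = 0.635). Reads that the counting assigned to no annotated feature made up 3.21 to 3.30% of all reads in Set2D and 2.39 to 2.44% in G34R. They made up 2.35 to 2.44% in G34V and 1.99 to 2.03% in WT. With stranded counting, they can include reads on the other strand of a gene. Whether this share plays a part in the differences below was not tested.

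Changes of the Smc5-Smc6 genes were small in every mutant. In G34R 3 of the 10 members fell and 1 rose, in G34V 2 fell and 2 rose, and in Set2D 6 fell and 1 rose, at an adjusted p under 0.05 in edgeR (quasi-likelihood test, Benjamini-Hochberg adjustment across the tested genes). Over all 6602 tested genes the called share was 53.4% in G34R (26.8% higher, 26.6% lower), 50.1% in G34V (25.1% higher, 25.0% lower) and 70.1% in Set2D (34.5% higher, 35.6% lower). The members' totals of 4, 4 and 7 of 10 were near these shares. Libraries of the mutant and of WT did not overlap for 6 of 10 members in G34R, 8 in G34V and 8 in Set2D, where this held for 62.4%, 57.9% and 71.9% of all tested genes. The median log2 fold change of the members was −0.04 in G34R, −0.01 in G34V and −0.07 in Set2D, while the median was −0.0022, −0.0060 and −0.0057 over all tested genes and −0.03, −0.02 and −0.04 over coding genes. The median size of the change, whatever its direction, was 0.046, 0.067 and 0.11 among the members, against 0.11, 0.098 and 0.17 among all tested genes. The tested genes include noncoding RNAs, and the median size over coding genes alone was not taken. The largest change of a member against WT was that of smc6 in Set2D, at −0.24 on the log2 scale. In that comparison 37.2% of all tested genes and 26.6% of coding genes changed by more. Genes called with a change of at least 2-fold numbered 58 in G34R, 70 in G34V and 452 in Set2D, and no member was among them.

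**Figure D1:**
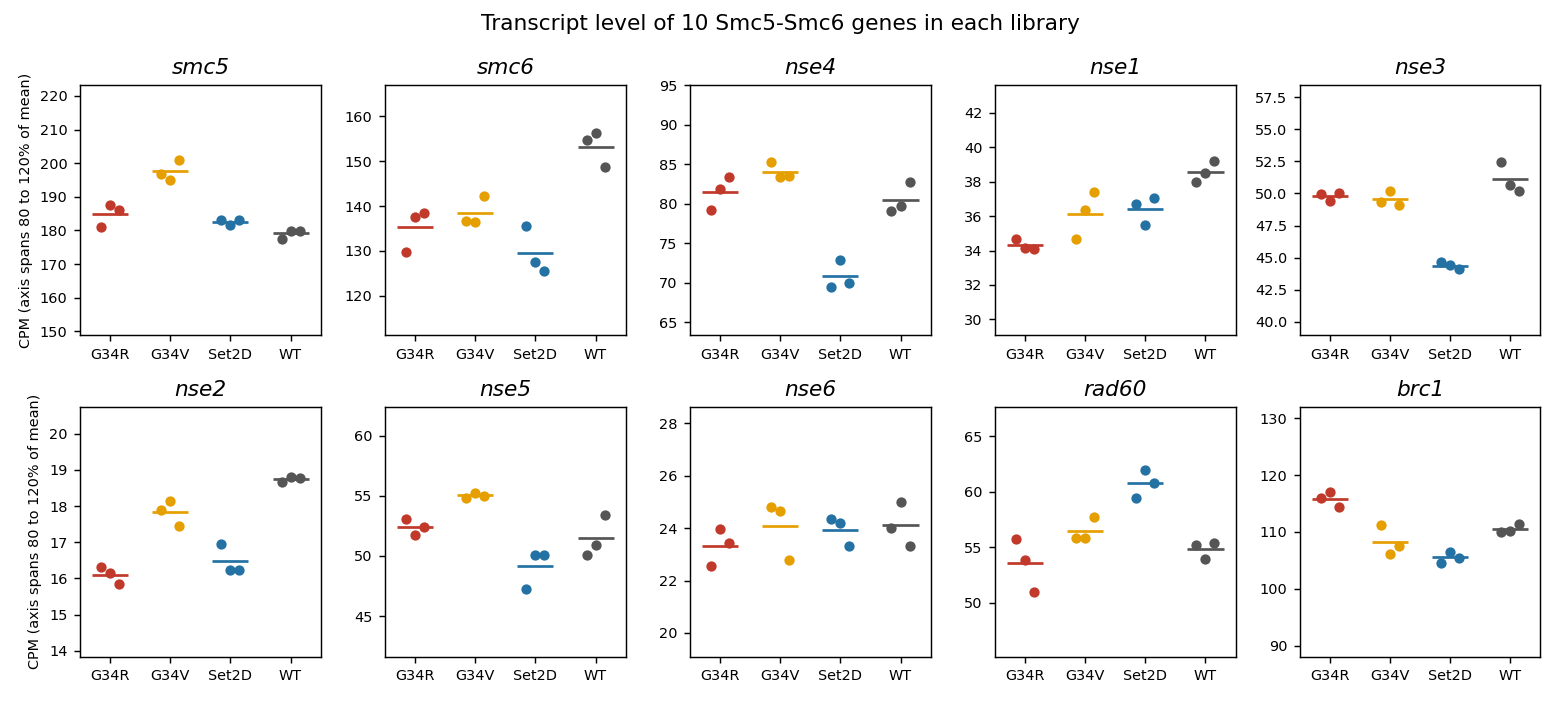
CPM of each Smc5-Smc6 gene in every library (points) with the group mean (line), for G34R, G34V, Set2D and WT, 3 libraries each; every axis spans 80 to 120% of the gene's mean over the 12 libraries and does not start at 0. The smc6 libraries of all 3 mutants lie below those of WT, nse3 and nse4 are set apart in Set2D, and nse6 overlaps in all groups.

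Of the SMC ATPase genes, smc6 fell in all 3 mutants and smc5 rose in G34V. Counts of smc6 scaled to 129.7, 137.6 and 138.4 CPM in the G34R libraries, 136.6, 136.4 and 142.3 CPM in G34V, 135.6, 127.5 and 125.6 CPM in Set2D, and 154.6, 156.2 and 148.8 CPM in WT. Every mutant library was below every WT library; G34R overlapped with both other mutants, while all G34V libraries were above those of Set2D. The log2 fold change of smc6 against WT was −0.18 in G34R (SE 0.032, edgeR adjusted p = 0.000285), −0.15 in G34V (SE 0.033, adjusted p = 0.00171) and −0.24 in Set2D (SE 0.033, adjusted p = 7.51e-06), which amounts to changes of −11.7%, −9.67% and −15.5%. Among all tested genes 8.12% were called lower in all 3 mutants, and smc6 and nse1 were the members among them. The 3 comparisons share their WT libraries. For smc5, the libraries stood at 181.0, 187.7 and 186.2 CPM in G34R, 196.7, 195.1 and 201.1 CPM in G34V, 183.1, 181.7 and 183.1 CPM in Set2D, and 177.6, 179.8 and 179.9 CPM in WT. The G34V libraries were the highest of all groups, and the WT libraries were below those of every mutant. The change of smc5 was called in G34V (log2 fold change 0.14, SE 0.021, edgeR adjusted p = 5.7e-05) and was not called in G34R (0.05, 95% interval 0.0022 to 0.09, edgeR adjusted p = 0.0719) or in Set2D (0.03, adjusted p = 0.243). With upper quartile scaling it was called higher in both (0.06, adjusted p = 0.0295, and 0.07, adjusted p = 0.00992), as with library totals alone and among coding genes alone; in G34R also with DESeq2, with a filter at 1 CPM and without G34R replicate 1.

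The ratio of smc6 to smc5 needs no scaling between libraries. It was chosen after the values of both genes had been seen, so it restates their differences without scaling and carries no test. The ratio of smc6 to smc5 counts, each divided by its coding length, was 0.676, 0.692 and 0.702 in the G34R libraries, 0.656, 0.660 and 0.668 in G34V, 0.699, 0.662 and 0.648 in Set2D, and 0.822, 0.820 and 0.780 in WT. All 9 mutant libraries were below the lowest WT library. The ratio averaged 0.690 ± 0.0130 in G34R, 0.661 ± 0.00624 in G34V, 0.670 ± 0.0264 in Set2D and 0.808 ± 0.0235 in WT (SD, n = 3 each). Of 3 other ratios taken in the same way, nse6 to nse5 overlapped with WT in every mutant, at 0.331 ± 0.0144 in G34R, 0.325 ± 0.0150 in G34V, 0.363 ± 0.0189 in Set2D and 0.349 ± 0.0211 in WT. The ratio of nse4 to nse3 averaged 1.79 ± 0.0473 in G34R, 1.85 ± 0.0366 in G34V, 1.74 ± 0.0471 in Set2D and 1.72 ± 0.0773 in WT, with the G34V libraries alone apart from WT. That of nse1 to nse3 averaged 0.972 ± 0.00957 in G34R, 1.03 ± 0.0425 in G34V, 1.16 ± 0.0291 in Set2D and 1.07 ± 0.0406 in WT, with G34R below WT, Set2D above WT and G34V overlapping.

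The files also count an RNA named smc6-antisense-1, the one antisense row named after a member. It rose in all 3 mutants, with the largest change in Set2D. Its libraries stood at 14.8, 14.4 and 15.3 CPM in G34R, 12.8, 12.8 and 14.5 CPM in G34V, 26.1, 25.0 and 27.4 CPM in Set2D, and 11.3, 11.0 and 12.2 CPM in WT. No mutant library overlapped with WT, and the Set2D libraries were above all others. Whether this RNA bears on the level of smc6 was not tested. The log2 fold change was 0.37 in G34R (SE 0.052, edgeR adjusted p = 3.62e-05), 0.21 in G34V (SE 0.055, adjusted p = 0.00602) and 1.19 in Set2D (SE 0.052, adjusted p = 1.33e-11). In Set2D the antisense RNA exceeded its G34R level (G34R against Set2D −0.82, edgeR adjusted p = 1.16e-09) and its G34V level (G34V against Set2D −0.98, adjusted p = 3.79e-10). As a share of smc6 counts it came to 11.0 ± 0.491% in G34R, 9.65 ± 0.452% in G34V, 20.2 ± 1.41% in Set2D and 7.51 ± 0.594% in WT (SD, n = 3 each). A rise was common in this class: of 617 tested antisense rows, 72.0% were called higher in G34R, 61.4% in G34V and 77.6% in Set2D, with median log2 fold changes of 0.27, 0.23 and 0.54. The libraries were stranded by their labels. Of 32 noncoding RNAs contained in a coding gene on the opposite strand, 24 had more than 3 counts in every library. How many reads were counted on the wrong strand was not measured.

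**Figure D2:**
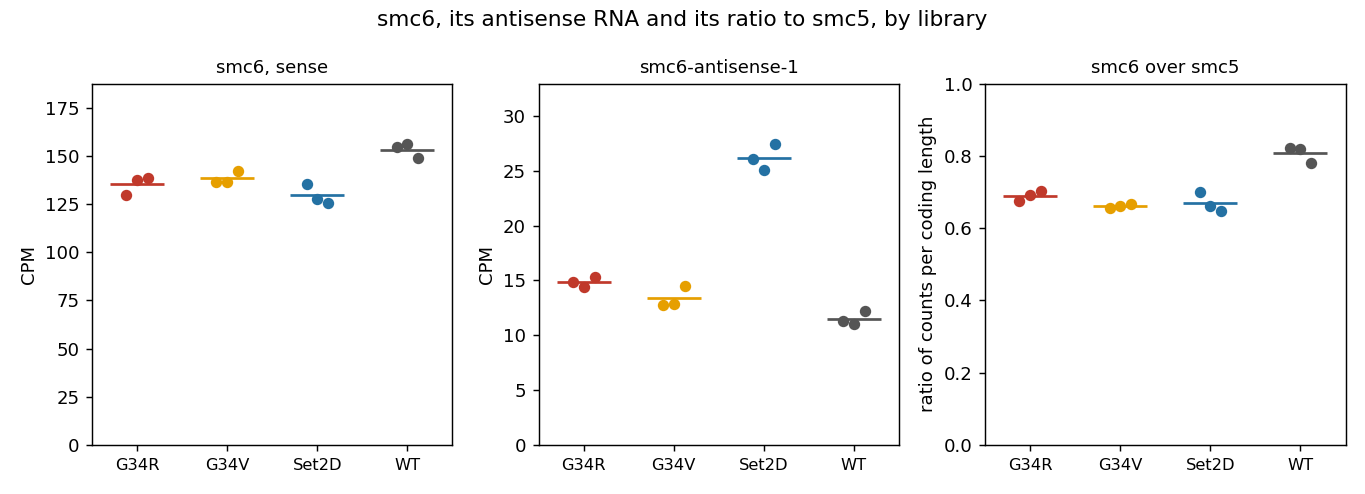
CPM of smc6 and of smc6-antisense-1, and the ratio of smc6 to smc5 counts per coding length, in each of 3 libraries (points; line, mean) of G34R, G34V, Set2D and WT, on axes that start at 0. In all 3 mutants smc6 and its ratio to smc5 are below WT and the antisense RNA is above WT, with the Set2D libraries at 25.0 to 27.4 CPM.

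The 3 genes of the bridge, the kleisin gene nse4 with nse1 and nse3, all fell in Set2D, and nse1 fell in the H3 mutants as well. For nse4, libraries lay at 79.2, 81.8 and 83.3 CPM in G34R, 85.3, 83.3 and 83.4 CPM in G34V, 69.5, 72.8 and 70.0 CPM in Set2D, and 79.1, 79.7 and 82.7 CPM in WT. The Set2D libraries were below all others, while those of G34R overlapped with WT. The gene fell in Set2D by 0.19 on the log2 scale (SE 0.027, edgeR adjusted p = 1.51e-05); it was not called in G34R (0.02, adjusted p = 0.604) or in G34V (0.06, adjusted p = 0.0660). In G34V nse4 was called higher with upper quartile scaling (0.09, edgeR adjusted p = 0.00918), and likewise with RLE scaling, among coding genes alone, in a fit of the 2 groups and without WT replicate 3.

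Transcripts of nse3 measured 49.9, 49.4 and 50.0 CPM in G34R, 49.4, 50.2 and 49.1 CPM in G34V, 44.7, 44.4 and 44.1 CPM in Set2D, and 52.5, 50.7 and 50.2 CPM in WT. Set2D was again the lowest group without overlap, and the G34R and G34V libraries lay just below those of WT. The fall in Set2D was 0.20 on the log2 scale (SE 0.024, edgeR adjusted p = 1.73e-06), and nse3 was not called in G34R (−0.04, adjusted p = 0.201) or G34V (−0.04, adjusted p = 0.139).

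The RING subunit gene nse1 fell in all 3 mutants, most in G34R. Its libraries were at 34.7, 34.2 and 34.1 CPM in G34R, 34.7, 36.3 and 37.4 CPM in G34V, 36.7, 35.5 and 37.1 CPM in Set2D, and 38.0, 38.5 and 39.2 CPM in WT. All mutant libraries were below WT, with the G34V and Set2D libraries overlapping. The log2 fold change was −0.17 in G34R (SE 0.030, edgeR adjusted p = 0.000221), −0.10 in G34V (SE 0.031, adjusted p = 0.0157) and −0.08 in Set2D (SE 0.030, adjusted p = 0.0249). The G34V call was lost without WT replicate 3 (edgeR adjusted p = 0.0554), without G34V replicate 1 (0.105), with upper quartile scaling (0.108) and among coding genes alone (0.0572). The Set2D call was lost without WT replicate 3 (0.0851), without Set2D replicate 2 (0.105), with upper quartile scaling (0.309), with library totals alone (0.610), among coding genes alone (0.186) and in a fit of the 2 groups (0.0538).

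The SUMO ligase gene nse2 fell in G34R and in Set2D. It was among the lowest of the members, at 16.3, 16.2 and 15.8 CPM in the G34R libraries, 17.9, 18.1 and 17.5 CPM in G34V, 16.9, 16.2 and 16.2 CPM in Set2D, and 18.7, 18.8 and 18.8 CPM in WT. No mutant library reached the WT values, and G34R and Set2D overlapped. Against WT the log2 fold change was −0.22 in G34R (SE 0.032, edgeR adjusted p = 3.8e-05) and −0.19 in Set2D (SE 0.033, adjusted p = 9.08e-05). In G34V it was −0.07 and was not called (95% interval −0.14 to −0.0018, adjusted p = 0.0817). The drop in G34R was the largest of any member in that comparison, a change of −14.2%. In that comparison 23.8% of all tested genes and 13.6% of the 5065 coding genes changed by more.

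Of the Nse5-Nse6 subcomplex, nse5 rose in G34V and nse6 was not called in any comparison. Among all tested genes, 11.9% were not called in any mutant against WT. For nse5 the libraries gave 53.1, 51.7 and 52.4 CPM in G34R, 54.9, 55.3 and 55.0 CPM in G34V, 47.2, 50.1 and 50.1 CPM in Set2D, and 50.1, 50.9 and 53.4 CPM in WT. The G34V libraries stood above the rest, and the Set2D libraries overlapped with WT by their margin. The rise in G34V was 0.10 on the log2 scale (SE 0.030, edgeR adjusted p = 0.0141), and was not called without WT replicate 1 (adjusted p = 0.0587) or WT replicate 2 (0.0505). In Set2D the value was −0.07 (edgeR adjusted p = 0.0562), called without WT replicate 1 (−0.08, 0.0434), Set2D replicate 2 (−0.08, 0.0478) or Set2D replicate 3 (−0.08, 0.0454). The partner gene nse6 had 22.6, 24.0 and 23.4 CPM in G34R, 24.8, 24.6 and 22.8 CPM in G34V, 24.3, 24.2 and 23.3 CPM in Set2D, and 24.0, 25.0 and 23.3 CPM in WT. All groups overlapped. The 95% intervals of its log2 fold change were −0.13 to 0.04 in G34R, −0.08 to 0.09 in G34V and −0.10 to 0.07 in Set2D, which bound the change that these libraries leave possible.

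Of the genes outside the complex, rad60 rose in Set2D, and brc1 rose in G34R and fell in Set2D. Rad60 transcripts were counted at 55.8, 53.8 and 51.0 CPM in G34R, 55.8, 55.8 and 57.7 CPM in G34V, 59.5, 62.0 and 60.8 CPM in Set2D, and 55.2, 54.0 and 55.4 CPM in WT. The Set2D libraries were above all others. The rise was 0.15 on the log2 scale (SE 0.031, edgeR adjusted p = 0.000529), the reverse of the direction of the 6 members that fell in Set2D. In G34R and G34V rad60 was not called (−0.04, adjusted p = 0.323, and 0.04, adjusted p = 0.305).

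The brc1 libraries had 116.0, 117.1 and 114.4 CPM in G34R, 111.2, 106.1 and 107.5 CPM in G34V, 104.5, 106.6 and 105.5 CPM in Set2D, and 110.0, 110.2 and 111.5 CPM in WT. G34R stood above and Set2D below WT without overlap, by about as much. The log2 fold change was 0.07 in G34R (SE 0.021, edgeR adjusted p = 0.0161), −0.03 in G34V (adjusted p = 0.273) and −0.07 in Set2D (SE 0.022, adjusted p = 0.0116). The G34R call was lost without G34R replicate 2 (edgeR adjusted p = 0.0712), and the Set2D call with upper quartile scaling (0.327), with library totals alone (0.894) and among coding genes alone (0.191).

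**Figure D3:**
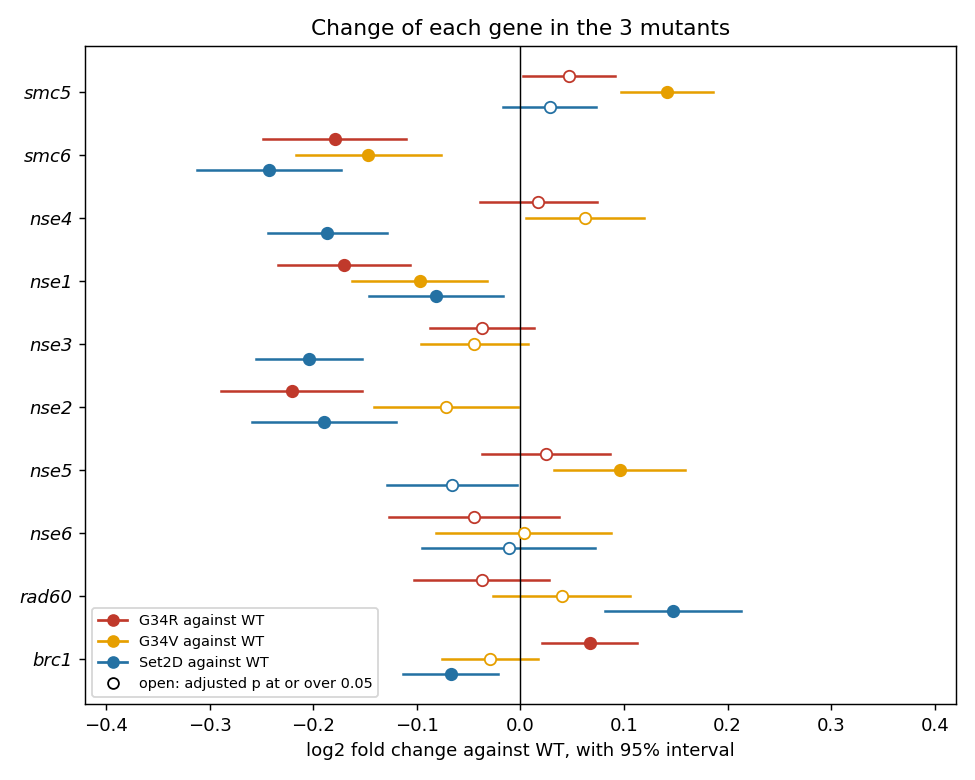
Log2 fold change of each Smc5-Smc6 gene against WT (horizontal axis) with its 95% interval from edgeR's quasi-likelihood fit, for G34R, G34V and Set2D, 3 libraries a group; filled points had an adjusted p under 0.05. All points lie between −0.24 and 0.15, smc6 and nse1 are filled below 0 in all 3 mutants, and nse6 is open in all 3.

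The H3 mutants were also set against each other. At an adjusted p under 0.05, 3 of the 10 members differed between G34R and G34V, where 50.5% of all tested genes did; libraries did not overlap for 7 members and for 60.7% of tested genes. The SUMO ligase gene nse2 was lower in G34R than in G34V, at 16.1 ± 0.239 and 17.8 ± 0.348 CPM (log2 fold change −0.15, SE 0.033, edgeR adjusted p = 0.00177), and so was smc5, at 185 ± 3.49 and 198 ± 3.10 CPM (−0.09, SE 0.021, adjusted p = 0.00176). Transcripts of brc1 were higher in G34R, at 116 ± 1.36 CPM against 108 ± 2.61 CPM in G34V (0.10, SE 0.022, adjusted p = 0.00196; SD, n = 3 each throughout). Just past the threshold lay rad60 (−0.08, adjusted p = 0.0518), nse5 (−0.07, 0.0575) and nse1 (−0.07, 0.0608), and with upper quartile scaling these 3 were called as well (adjusted p = 0.0354, 0.0305 and 0.0409). Leaving out single libraries called nse1 without G34V replicate 1 (0.0148), nse5 without WT replicate 3 (0.0374) or Set2D replicate 1 (0.0371), and rad60 without G34R replicate 1 (0.0131) or Set2D replicate 1 (0.0496). The difference of smc5 was not called with library totals alone (adjusted p = 0.0627). Of the genes called lower against WT in all 3 mutants, smc6 stood at 135 ± 4.82 CPM in G34R and 138 ± 3.32 CPM in G34V (−0.03, 95% interval −0.10 to 0.04, adjusted p = 0.425).

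Against Set2D, 6 of 10 members differed in G34R and 7 of 10 in G34V, where 69.4% and 62.5% of all tested genes did. Libraries did not overlap for 6 and 7 members, and for 72.0% and 64.9% of tested genes. The largest differences were those of nse4, at 81.4 ± 2.09 CPM in G34R and 70.8 ± 1.82 CPM in Set2D (log2 fold change 0.20, SE 0.027, edgeR adjusted p = 6.27e-06), and at 84.0 ± 1.12 CPM in G34V (0.25, SE 0.027, adjusted p = 1.12e-06). Likewise nse3 was higher in G34R (0.17, adjusted p = 1.62e-05) and in G34V (0.16, adjusted p = 4.1e-05) than in Set2D, and so was nse5 (0.09, adjusted p = 0.0124, and 0.16, adjusted p = 0.000233). In both H3 mutants rad60 was lower than in Set2D (−0.18, adjusted p = 7.22e-05, and −0.11, adjusted p = 0.00757). Of the rest, brc1 was higher (0.13, adjusted p = 5.02e-05) and nse1 lower (−0.09, adjusted p = 0.0178) in G34R than in Set2D, while smc5 (0.11, adjusted p = 0.000242), smc6 (0.10, adjusted p = 0.0198) and nse2 (0.12, adjusted p = 0.00691) were higher in G34V than in Set2D. Several of these calls were near the threshold and were not made under every setting or with every library left out. With library totals alone the differences of smc5, smc6 and nse2 between G34V and Set2D were 0.05, 0.03 and 0.05 on the log2 scale and not called (edgeR adjusted p = 0.118, 0.516 and 0.243). That of nse5 between G34R and Set2D was 0.06 and not called with library totals alone (0.101), with upper quartile scaling (0.0810) and without Set2D replicate 1 (0.0655), and 0.08 without G34R replicate 1 (0.0510). For smc6 the difference between G34V and Set2D was 0.07 without G34V replicate 3 (0.0949), 0.08 without Set2D replicate 2 (0.0715) and 0.07 without Set2D replicate 3 (0.0939), none of them called, while smc6 was called between G34R and Set2D without G34R replicate 1 (0.09, 0.0301) or Set2D replicate 1 (0.10, 0.0147). For nse1, G34R against Set2D was not called at −0.09 without G34R replicate 2 (0.0513), −0.08 without G34R replicate 3 (0.0527) and −0.07 without Set2D replicate 3 (0.0736).

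The range of levels across the members was wider than the range of any member between groups, though some members lay close to one another. Levels were compared between genes as CPM per kb of coding sequence, with coding lengths from the later build ASM294v3. In WT the order was nse4 (89.1 ± 2.12), smc5 (55.4 ± 0.412), nse1 (55.2 ± 0.845), nse3 (51.8 ± 1.24), rad60 (44.9 ± 0.644), smc6 (44.8 ± 1.15), nse5 (44.1 ± 1.48), brc1 (43.4 ± 0.309), nse2 (24.9 ± 0.0989) and nse6 (15.4 ± 0.528 CPM per kb; SD, n = 3 each). The libraries of smc5 and nse1 overlapped, and so did those of each neighbour in the run of rad60, smc6, nse5 and brc1, while the other neighbours were apart. The kleisin gene was the highest and nse6 the lowest in all 4 groups, nse2 was the ninth by coding length in each, smc5 the second, and smc6 the eighth in each mutant but the sixth in WT. In WT the median coding gene had 65.4 CPM per kb; nse4 exceeded 62.5% of 5065 coding genes, nse6 exceeded 7.86%, and all members except nse4 were below that median. With the length of the annotated spliced transcript in place of the coding length, nse1 came to 19.4 CPM per kb in WT, since its annotated transcript has 1989 bases for 699 bases of coding sequence, and this put it next to the lowest. The order of others moved as well: after nse4 and smc5, which kept their places at the top, came brc1 (43.0 CPM per kb), smc6 (41.3), nse5 (39.9), nse3 (39.4), rad60 (39.1), nse2 (21.5) and nse1, with nse6 again the lowest. Between smc5 and nse6 the order given above thus holds for coding length only.

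**Figure D4:**
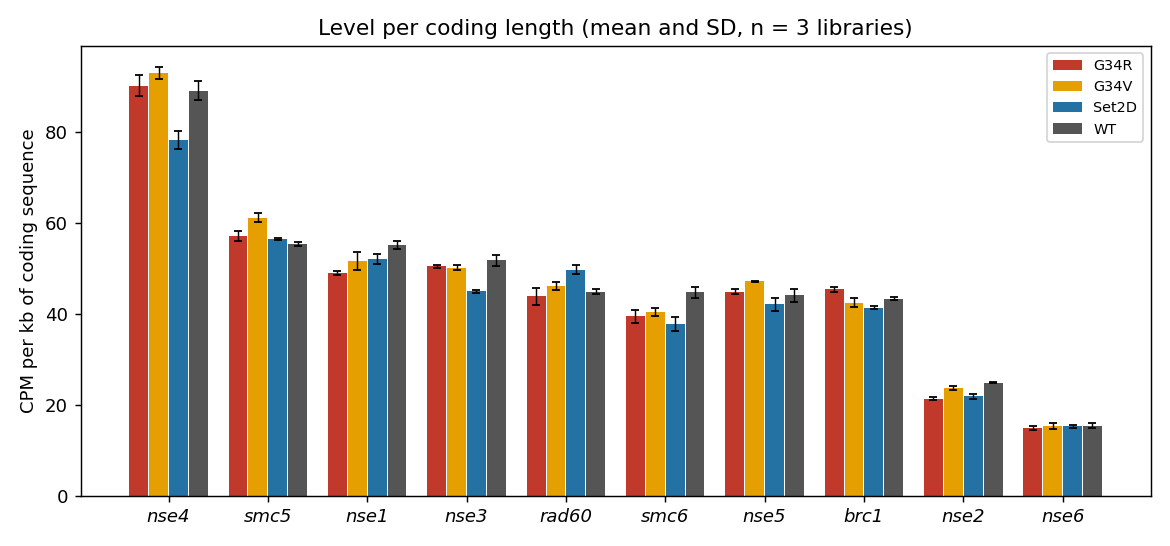
Level of each Smc5-Smc6 gene in CPM per kb of coding sequence (bars, mean; error bars, SD, n = 3 libraries) in G34R, G34V, Set2D and WT, with genes ordered by their WT level. The bars run down to 15.4 CPM per kb for nse6 in WT, with nse4 at 89.1, and the groups differ far less than do nse4 and nse6.

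Summed over the 8 subunits of the complex, the level per coding length was 363, 369 and 371 CPM per kb in the G34R libraries, 381, 382 and 384 in G34V, 349, 350 and 348 in Set2D, and 378, 380 and 383 in WT. The sums of Set2D and of G34R lay below those of WT, Set2D furthest, and G34V overlapped with WT. They hold for coding length only, since no sum was made with spliced length. By coding length nse1 counts for 55.2 CPM per kb in WT and 49.1 in G34R, while by spliced length it has 19.4 in WT. Scaling to library totals alone, chosen after the values were seen, gave 362, 371 and 375 CPM per kb in G34R and 369, 379 and 376 in WT, which overlap, while Set2D stayed below WT at 363, 363 and 350. With upper quartile scaling the G34V libraries, at 380 to 391, were above those of WT, at 373 to 377. With TMM groups averaged 368 ± 3.84, 383 ± 1.43, 349 ± 1.04 and 381 ± 2.45 CPM per kb in that order (SD, n = 3 each). In these bulk samples a change in RNA per cell cannot be told apart from a change in the rest of the RNA against which counts are scaled.

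The members were spread over the genome: smc5, nse2 and nse6 lie on chromosome I, nse4, nse5, rad60 and brc1 on chromosome II, and smc6, nse1 and nse3 on chromosome III. In build ASM294v3, 6 of the 10 overlap with a coding gene of the other strand. The gene nse1 overlaps with the chaperonin gene hsp10 over 842 bases, nse6 with vma4 over 336 and nse3 with myo2 over 144. The overlaps of rad60 with mex67, nse4 with SPBC20F10.03 and nse5 with apm3 span 122, 83 and 4 bases. Over the 6 partners and 3 mutants, giving 18 cases, member and partner were both called in the same direction in 3 and in opposite directions in 2. The member alone was called in 2, the partner alone in 7, and neither in 4. Of all tested genes 53.4% were called in G34R, 50.1% in G34V and 70.1% in Set2D. Other overlapping pairs of genes were not tallied, so these counts are no result about overlap. The same direction was seen in Set2D for myo2 (−0.08, edgeR adjusted p = 0.00849) and SPBC20F10.03 (−0.36, adjusted p = 1.66e-05), which fell with nse3 and nse4, and for the mRNA export gene mex67 (0.23, adjusted p = 1.03e-06), which rose with rad60. In the opposite direction, hsp10 rose in Set2D (0.26, adjusted p = 4.13e-05) where nse1 fell, and apm3 fell in G34V (−0.09, adjusted p = 0.0280) where nse5 rose. In G34R and G34V nse1 fell and hsp10 was not called (−0.04, adjusted p = 0.389, and 0.03, adjusted p = 0.624). The partner alone was called for apm3 in G34R (−0.18, adjusted p = 0.000320) and Set2D (−0.20, adjusted p = 7.02e-05), for mex67 in G34R (0.18, adjusted p = 3.18e-05) and G34V (0.07, adjusted p = 0.0293), for myo2 in G34V (−0.07, adjusted p = 0.0338), for SPBC20F10.03 in G34V (−0.28, adjusted p = 0.000325) and for vma4 in Set2D (−0.08, adjusted p = 0.00544).

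The widest ranges of group means belonged to nse4 (0.25 on the log2 scale) and smc6 (0.24). Over the 12 libraries the genes whose centred log2 CPM lay closest to nse4 were cid14, a poly(A) polymerase gene of the TRAMP complex, iah1 and the tRNA exportin gene los1, with mean absolute differences of 0.0198, 0.0212 and 0.0258. Closest to smc6 were the GTP cyclohydrolase gene rib1 (0.0234), the SNF2-family repair gene rhp26 (0.0250) and SPBC4C3.09 (0.0269). Against WT rib1 was at −0.17, −0.15 and −0.19 in G34R, G34V and Set2D, and cid14 at −0.00, 0.07 and −0.16.

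Related genes were counted from 5 lists, each against WT and beside the called shares of all tested genes given above. Of 9 cohesin genes, 4 fell and 2 rose in G34R, 6 fell in G34V and 4 fell in Set2D, the rest not being called. The cohesin release factor gene wpl1 fell in all 3 (−0.18, −0.25 and −0.24), while mis4, a gene of the cohesin loader, rose in G34R (0.19, SE 0.020, edgeR adjusted p = 2.34e-06) and fell in G34V (−0.12, adjusted p = 0.000176) and Set2D (−0.18, adjusted p = 7.87e-07). The SMC subunit gene psm1 rose in G34R (0.08, adjusted p = 0.0206) and fell in Set2D (−0.22, adjusted p = 2.54e-06); it was at −0.07 in G34V (adjusted p = 0.0548). The median log2 fold change of the cohesin list was −0.07 in G34R, −0.12 in G34V and −0.04 in Set2D (0.0043 with upper quartile scaling and 0.024 with library totals alone).

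Of 5 condensin genes, 2 fell and 2 rose in G34R, 3 fell and 1 rose in G34V, and 5 fell in Set2D, with medians of −0.04, −0.07 and −0.12. With upper quartile scaling or among coding genes alone 3 were called lower in Set2D, and 2 with library totals alone. All genes called lower in Set2D numbered 1876 with upper quartile scaling (2671 higher) and 1768 among coding genes alone (1676 higher). With library totals alone they numbered 1621 (2794 higher). The SMC subunit gene cut3 fell in Set2D, at 186 CPM against 224 CPM in WT (−0.27, SE 0.022, edgeR adjusted p = 3.21e-08), and in G34V (−0.07, adjusted p = 0.0177); it was at −0.04 in G34R (adjusted p = 0.153). The kleisin gene cnd2 fell in all 3 mutants (−0.11, −0.14 and −0.22), as did cnd1 (−0.06, −0.12 and −0.05).

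Of 10 SUMO pathway genes, 4 rose in G34R, 3 rose and 1 fell in G34V, and 7 rose and 1 fell in Set2D, with medians of 0.04, 0.05 and 0.11. In Set2D the rises included rfp1 (0.25, SE 0.026, edgeR adjusted p = 3.05e-07) and slx8 (0.19, adjusted p = 1.92e-06), which encode a ubiquitin ligase that targets SUMO-bearing proteins, and rad31 (0.19, adjusted p = 4.22e-05), a gene of the SUMO activating enzyme. In G34R rfp1 rose (0.12, adjusted p = 0.00118), with slx8 at 0.04 and rad31 at 0.04 and not called. In G34V slx8 fell (−0.11, adjusted p = 0.00128), rad31 rose (0.08, adjusted p = 0.0381) and rfp1 was at 0.06 (adjusted p = 0.0555). The SUMO ligase gene of the complex itself, nse2, fell in G34R and Set2D. In Set2D pli1 of this list fell too (−0.10, edgeR adjusted p = 0.000217), while the 7 other called genes rose. In G34R pli1 was at −0.02 (edgeR adjusted p = 0.304) and in G34V at −0.03 (adjusted p = 0.156), and was called in neither.

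Of 17 genes of recombination and joint resolution, 3 rose and 3 fell in G34R, 2 rose and 3 fell in G34V, and 8 rose and 3 fell in Set2D, with medians of −0.02, −0.03 and 0.05. With library totals alone or among coding genes alone the G34R median was above 0, at 0.014 and 0.012. The helicase gene srs2 rose in Set2D, at 137 CPM against 102 CPM in WT (0.42, SE 0.027, edgeR adjusted p = 1.29e-09), and was at 0.02 in G34R (adjusted p = 0.587) and 0.04 in G34V (0.246). Also in Set2D slx1, an endonuclease gene, rose (0.30, adjusted p = 1.02e-06) and eme1, which encodes a partner of Mus81, fell (−0.31, adjusted p = 2.13e-07). In the H3 mutants slx1 was at 0.07 in G34R (adjusted p = 0.0815) and rose in G34V (0.10, adjusted p = 0.0233), and eme1 was not called (−0.00 and −0.05).

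Of 12 genes of signalling at phosphorylated H2A and of post-replication repair, 2 rose and 2 fell in G34R, 2 rose and 2 fell in G34V, and 5 rose and 5 fell in Set2D, with medians of 0.01, 0.04 and 0.04. With upper quartile scaling 5 were called higher and 0 lower in G34V (0 lower also among coding genes alone). That scaling called 2032 of all tested genes higher and 1165 lower in G34V. Among coding genes alone 1206 were called higher and 1160 lower. The ubiquitin-conjugation gene mms2 fell in all 3 mutants (−0.28, −0.09 and −0.08), most in G34R at 72.6 CPM against 88.1 CPM in WT (SE 0.025, edgeR adjusted p = 3.81e-07). The checkpoint kinase gene rad3, whose product phosphorylates H2A at damaged forks, rose in G34R (0.06, adjusted p = 0.0174). It was at 0.04 in G34V (adjusted p = 0.0893) and fell in Set2D (−0.22, adjusted p = 6.98e-08). The gene of the sliding clamp PCNA, pcn1, fell in G34R (−0.16, adjusted p = 3.97e-05) and was at −0.04 in G34V and 0.04 in Set2D.

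**Figure D5:**
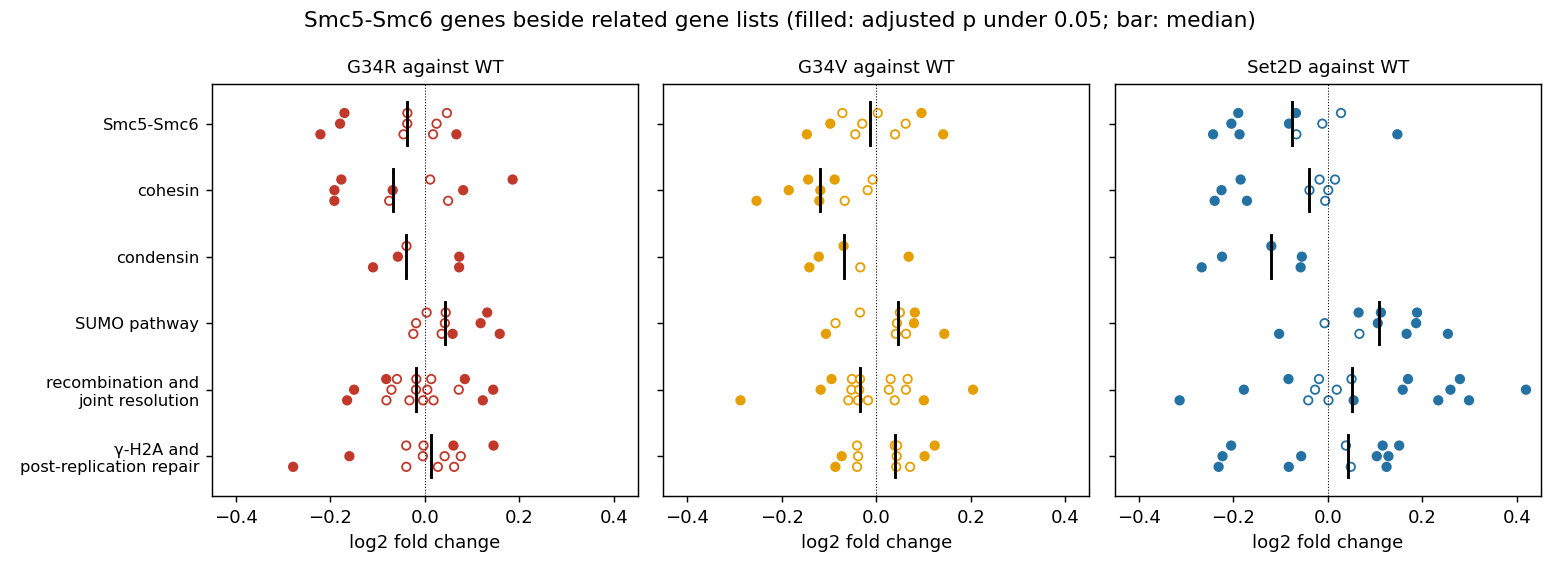
Log2 fold change against WT of each Smc5-Smc6 gene and of each gene in 5 related lists (points; filled, adjusted p under 0.05 in edgeR's test; bar, median of the list), in panels for G34R, G34V and Set2D, 3 libraries a group. The Set2D panel has 5 filled condensin points below 0 and 7 filled SUMO pathway points above 0, and the Smc5-Smc6 points span −0.24 to 0.15 there.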

How the data were processed

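The authors deposited integer read counts per gene, in 12 files, each of 1 library. CASAVA 1.7, cutadapt, STAR, SAMtools and HTSeq were used with build ASM294v2, per the submitters' processing notes. Per the labels, ribosomal RNA was removed from 2 µg of DNase-treated total RNA before stranded libraries were prepared. The files each list 7013 genes and 5 summary lines, which were kept out of the tests.

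Genes were filtered with filterByExpr in edgeR 4.0.16, with TMM scaling, and 1 robust quasi-likelihood fit covered all 12 libraries (8 residual degrees of freedom). Benjamini-Hochberg adjustment spanned 6602 genes, with calls at 0.05. Standard errors are the fold change divided by the root of F. CPM were calculated from these counts as counts per 1000000 of the library total times its TMM factor.

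Alternatives were RLE, upper quartile and no scaling, other filters, coding genes alone, DESeq2 1.42.0, limma 3.58.1, the 2 groups alone, a threshold of 0.01, a test against a fold of 1.1, and each library left out. Every count of Set2D replicate 3 was even, as were 48.4 to 50.6% of nonzero counts elsewhere, and no source explains it. That file was kept as it is, and halved as an alternative. The fit was tested on simulated data.

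The members and lists were chosen with earlier results of these data known. The text names all members, antisense rows named after them, from each list the 3 genes of lowest adjusted p against WT, the 3 genes closest to each of the 2 members of widest range (pseudocount 0.5), and set2; the genes that overlap a member on the other strand were added after the values were seen. The gene pli1 of the SUMO list was likewise named after the values were seen. In the SUMO list uba2 replaced fub2 then, because fub2 names an unrelated gene in the annotation. Names, lengths and overlaps came from RefSeq's ASM294v3.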

Additional observations from a re-analysis of the deposited data

How the results depend on the processing

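No paired analysis was possible because replicate numbers only name libraries and tie none to another group. Of 31 calls of a member over the 6 comparisons, 7 kept their direction and their side of the threshold under every alternative run: nse2 in G34R, smc6, nse4, nse3 and nse2 in Set2D, and nse4 in G34R and in G34V against Set2D. Without the test against a fold of 1.1, 10 of the 15 calls against WT did so, among them smc6 in all 3 mutants. That test left 1, 0 and 4 members called in G34R, G34V and Set2D against WT, 0 between G34R and G34V, and 1 in G34R and 1 in G34V against Set2D (edgeR; at an unadjusted p under 0.05 2, 0, 4, 0, 3 and 1), and 1333, 1178, 2778, 1055, 2680 and 2148 of all genes. The count of members was 2 in G34V at a threshold of 0.01, where 1247 of all tested genes were called higher and 1144 lower. Between G34R and G34V it was 6 with upper quartile scaling (all genes, 1457 higher and 1888 lower). It was 3 to 5 there with single libraries left out, and 5 without Set2D replicate 1 (all genes, 1701 and 1727). Between G34V and Set2D it was 4 with library totals alone (all genes, 1229 and 2855). In the main fit 3306, 3337 and 4123 of 6602 genes were called in these 3 comparisons. Scaling moved the median of all genes by at most 0.0629, and the share of calls that were higher was 63.6% in G34V with upper quartile scaling (50.1% with TMM) and 62.7% in G34R and 63.3% in Set2D with library totals alone (50.3% and 49.2%).

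Of the members' values that were not called, 7 turned sign. For nse6 the value was −0.002935 in G34V with limma, and in Set2D 0.03152 with upper quartile scaling, 0.05082 with library totals alone and 0.02376 among coding genes alone. Leaving out single libraries gave nse6 −0.02041 to 0.03902 in G34V, −0.03514 to 0.01497 in Set2D and −0.008645 to 0.0445 in G34V against Set2D, which was −0.04924 with library totals alone. For nse1, G34V against Set2D was −0.04317 to 0.01613 with single libraries left out. With upper quartile scaling nse3 in G34R against G34V was −0.007217 and smc5 in G34R against Set2D −0.009722 (−0.01318 with library totals alone), and brc1 in G34V against Set2D was −0.02546 with library totals alone. The cause was not tested. Halving Set2D replicate 3 changed no call of a member against WT, and rad60 was then called between G34R and G34V (edgeR adjusted p = 0.0464). With 3 libraries a group, changes of a few percent are near the limit of detection.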
